A study of Sus scrofa with 19 samples.

Results

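The genes of fatty acid uptake and oxidation were followed in RNA from pig myocardium. The list held 35 genes chosen by symbol, from LPL at the capillary wall to the uncoupling proteins of the inner mitochondrial membrane. Of these, 32 were found by symbol among the 14744 genes of the authors' table and through its identifiers in the count files, which hold 25879 genes. All 32 passed the filter on low counts, UCP3 only through the Control libraries, and were tested with 13552 genes in all. CD36, ACACB and ECI1 were not found by symbol in that table and were not analysed here.

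The 19 libraries came from female large white pigs, as labelled, with 1 library per pig. In group DOX (n = 5) pigs received doxorubicin, an anthracycline, and in group MYO (n = 5) Myocet, a liposomal doxorubicin citrate, each in 3 cycles of 60 mg/m2 and with 3 months of follow-up, which was cut short because the animals' health declined. In group RemoLV (n = 3) a balloon closed the mid left anterior descending artery for 90 min before reperfusion, and the remote posterior wall was taken at 6 months. In group Hyper (n = 3) a stent of 9 mm in the descending thoracic aorta of juvenile pigs became an isthmus stenosis as the aorta grew, and the anterior wall was taken at 6 months. Group Control (n = 3) was sham-operated according to the labels and untreated and of the same age according to the methods, with the anterior wall taken at 6 months. The DOX and MYO data came from an earlier study and had the shorter follow-up. Study, follow-up and treatment thus cannot be told apart for these 10 libraries, and wall region and group cannot be told apart for RemoLV. Counts on genes ranged from 9527710 to 20370209 per library, with a median of 14527230.

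The names of the groups differed between the deposited files. All 19 columns of expression values in the authors' table could be matched to 1 count file by rank (Spearman 1.0, next highest 0.992), but for 8 of them table and count file gave different groups. What the table calls Control are the 3 RemoLV count files and the reverse, and 1 DOX and 1 MYO library change places. Groups are given here by the labels of the count files (file labels), and counts of members and lists with the names of the table (table names) are also given. The comparison of DOX and MYO together with Hyper holds the same libraries under both namings, and which naming is right was not settled here. The 3 libraries labelled RemoLV also stood apart in their chamber markers. MYL2, the ventricular regulatory light chain, was at 18.6, 115 and 40.0 CPM (counts per 1000000 counts) in these libraries and between 8975 and 18080 CPM in the other 16, whereas MYL4, the atrial essential light chain, was at 8130, 7348 and 6029 CPM against at most 21.9 CPM elsewhere. The summed level of 6 atrial markers was 9698 to 13010 CPM in these libraries, 860 to 2503 CPM in DOX and MYO, 332 to 1336 CPM in Hyper and 188 to 252 CPM in Control. In DOX and MYO this sum was mostly MYL7, the atrial regulatory light chain. MYL7 was at 736.5 to 2379 CPM in DOX and MYO, at 172 to 1229 CPM in Hyper and at 59.1 to 111 CPM in Control. SLN, NR2F2, TBX5 and KCNJ3, by contrast, overlapped between Control and both DOX and MYO. DDX3Y, a gene of the Y chromosome, was between 96.1 and 177 CPM in all 10 libraries of DOX and MYO and had at most 2 counts in each of the other 9, although all pigs are labelled female.

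The adult heart draws most of its energy from long-chain fatty acids. Lipoprotein lipase frees them from circulating triglyceride, transport and binding proteins bring them to the outer mitochondrial membrane, and acyl-CoA synthetase and the carnitine shuttle carry them into the matrix, where repeated cycles of dehydrogenation, hydration, oxidation and thiolysis shorten the chain. Electrons leave the first step through the electron transfer flavoprotein, malonyl-CoA blocks entry at CPT1, and PPAR alpha with the PGC-1 coactivators controls transcription of many of these genes.

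Promoter sequences were read from the RefSeq annotation of the pig genome Sscrofa11.1, the build of the counts. HADHB and HADHA, which encode both subunits of the mitochondrial trifunctional protein, start head to head on opposite strands, HADHB on the minus strand (chr3:112712894-112753121) and HADHA on the plus strand (chr3:112753343-112797627). The 221 bases between their starts (chr3:112753122-112753342, plus strand, 62.9% GC) are shown because these genes share them.
HADHB to HADHA: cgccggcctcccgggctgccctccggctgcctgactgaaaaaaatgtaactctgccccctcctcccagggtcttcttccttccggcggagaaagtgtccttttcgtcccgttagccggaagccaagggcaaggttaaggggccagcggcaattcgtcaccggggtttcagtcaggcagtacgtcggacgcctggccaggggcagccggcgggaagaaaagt
The bases before UCP3 (chr9:8389453-8389702, minus strand, 250 bases, read 5′ to 3′) are shown because UCP3 had the most negative fitted fold change of the list against Control, the only group in which it reached the filter on low counts. Capitals mark AGGTCA, the recognition letters of many nuclear receptors, which begin 60 bases before the gene start on the same strand and 126 bases before it on the opposite strand, where they read as TGACCT.
UCP3: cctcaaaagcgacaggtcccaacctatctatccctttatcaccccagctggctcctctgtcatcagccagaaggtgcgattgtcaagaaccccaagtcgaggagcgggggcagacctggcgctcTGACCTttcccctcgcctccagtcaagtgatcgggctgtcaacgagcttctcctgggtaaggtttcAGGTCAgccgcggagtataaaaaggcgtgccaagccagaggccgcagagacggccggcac
ECI2 alone among the 32 genes held TCAAGGTCA, the site of the estrogen-related receptors, which is shown in capitals as it reads from the opposite strand, beginning 218 bases before the start.
ECI2: cggtggctccTGACCTTGAgcgtcggccc
Both strands of 250 bases before and 50 bases after each start were searched. AGGTCA was found in 6 of the 32 members (18.8%) and in 14.1% of 19544 promoters, and TCAAGGTCA, which includes AGGTCA, in 1 member (3.12%) and in 0.358% of promoters. The direct repeat of 2 copies of AGGTCA with 1 base between them, a site of PPAR with RXR, was in 0 of 32 members and in 0.0307% of promoters. A match of letters is a description and was not tested for binding, and the stretch shared by HADHB and HADHA had no AGGTCA.

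Levels of different genes were compared as CPM per kb of annotated exon, over the 16 libraries not labelled RemoLV. FABP3, the fatty acid binding protein of muscle, was at the top with 2020 CPM per kb, followed by LPL with 563 and HADHB with 531. In the 10 DOX and MYO libraries alone HADHB with 479 was above LPL with 409 CPM per kb. CPT1B, the muscle form of carnitine palmitoyltransferase 1, was at 234 CPM per kb and CPT1A, the liver form, at 5.34. UCP3 with 0.398 and SLC27A6, a long-chain fatty acid transport protein, with 0.114 CPM per kb were at the lower end. This order depends on the annotated exon length, which was 447 bases for FABP3 and 15659 for SLC27A6. In mean CPM over the same 16 libraries, FABP3 at 903 was below LPL at 1690 and HADHB at 1266. SLC27A6 at 1.785 CPM was above UCP3 at 0.891 CPM.

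**Figure D1:**
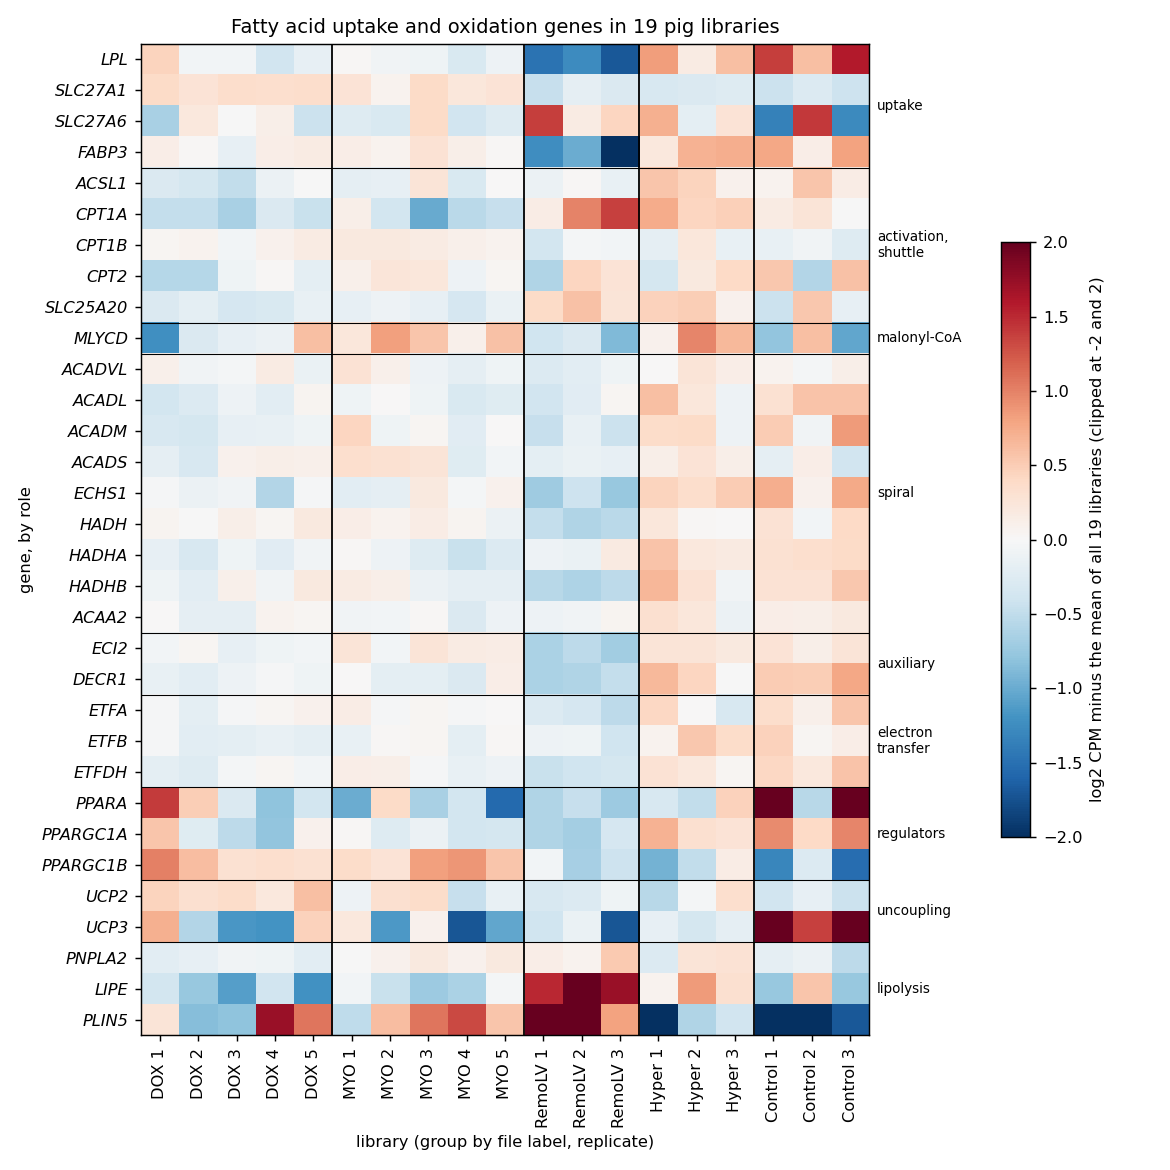
Each row is 1 of the 32 genes, grouped by role, and each column 1 of the 19 libraries by file label. Colour gives log2 CPM minus the gene's mean over all libraries, clipped at -2 and 2. The libraries labelled RemoLV are low for LPL, FABP3 and most matrix enzymes and high for LIPE, while Control replicates 1 and 3 are high for PPARA and UCP3.

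In DOX against Control, 4 of the 32 genes were higher and 17 lower by edgeR's quasi-likelihood test at an adjusted p of at most 0.05, where 20.8% and 21.1% of all tested genes were called higher and lower. The median log2 fold change of the members was -0.38, against 0.031 over all genes. In MYO against Control, 5 were higher and 11 lower (20.6% and 21.6% of all genes), with a median of -0.29. DESeq2 called 5 higher and 17 lower there, and its share of all genes is not given here. In the libraries labelled RemoLV, 4 were higher and 16 lower (23.0% and 23.9% of all genes), with a median of -0.35. In Hyper, 0 were higher and 0 lower by edgeR (0.0% of all genes), with a median of 0.0097. At an unadjusted p of at most 0.05, 1 member was higher and 3 were lower in Hyper, against 1115 and 1290 of all 13552 genes. UCP3 was 1 of those 3. In Hyper DESeq2 called 1 lower, and its share of all genes is not given here either. These comparisons share the 3 Control libraries and are not independent. UCP3 is among the lower calls, and since only its Control libraries reached the filter it could only be lower elsewhere. Without UCP3 there were 16 lower in DOX, 10 in MYO and 15 in the libraries labelled RemoLV. With table names the direction of the members turned, with 12 higher and 4 lower in DOX (14.9% and 14.5% of all genes), 13 and 3 in MYO (14.6% and 14.2%), 16 and 4 in RemoLV (23.9% and 23.1%) and 17 and 2 in Hyper (18.6% and 17.1%). Called in the same direction under both namings were SLC27A1, CPT1A and PPARGC1B in DOX and SLC27A1, CPT1B and PPARGC1B in MYO, and 0 members in RemoLV or Hyper against Control.

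Control replicate 2 differed from replicates 1 and 3 in several members. PPARA was at 30.9, 4.04 and 51.9 CPM in Control replicates 1, 2 and 3, MLYCD at 18.4, 48.2 and 15.4 CPM, and SLC27A6 at 0.597, 4.87 and 0.635 CPM. The blood markers HBB, a hemoglobin chain, and ALAS2 split these libraries in the same way. HBB was at 337, 35.1 and 325 CPM and ALAS2 at 13.4, 1.07 and 13.6 CPM. The 4 blood markers, mostly HBB, summed to 372, 53.0 and 358 CPM, against at most 218.5 CPM in the other 16 libraries. PTPRC and CD3E differed less, at 15.4 to 18.4 and 1.485 to 3.58 CPM in Control. In DOX they were at 16.1 to 53.5 and 2.12 to 6.72 CPM. The part of blood in the values of Control was not tested. Without Control replicate 2, calls in Hyper went from 0 to 5 higher and 3 lower members, those in MYO to 8 higher and 15 lower, and the higher members in the libraries labelled RemoLV from 4 to 7. Without Control replicate 3, the lower members in DOX went from 17 to 10, and the higher ones from 5 to 3 in MYO and from 4 to 2 in the libraries labelled RemoLV, where leaving out RemoLV replicate 3 also gave 2. Without Hyper replicate 1, 1 member was higher and 2 were lower in Hyper. The shares of all genes called in these fits are not given here. These shifts therefore cannot be told apart from a change in calls over all genes. With each of the 19 libraries left out in turn, 12 of the 21 calls in DOX, 12 of the 16 in MYO and 16 of the 20 in the libraries labelled RemoLV were kept in all fits. LPL, ACADL, ECHS1, DECR1, ETFDH, PPARGC1A and PLIN5 were among those kept in each of these 3 comparisons, and UCP3 was also kept but passed the filter only through Control.

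The comparison that holds the same libraries under both namings was DOX and MYO together (10 libraries) against Hyper (3 libraries). These groups also differed in source study, in follow-up (3 against 6 months) and in DDX3Y, which cannot be told apart from treatment. Here 3 members were higher and 13 lower (15.6% and 16.8% of all genes), with a median of -0.27 against 0.025 over all genes. Those higher were SLC27A1, PPARGC1B and PLIN5, and those lower were LPL, FABP3, ACSL1, CPT1A, SLC25A20, ACADL, ECHS1, HADHA, HADHB, DECR1, ETFB, PPARGC1A and LIPE. With table names, in which DOX and MYO were fitted with 1 library exchanged, the counts were also 3 and 13 (15.7% and 16.9% of all genes), with a median of -0.27. Of the 16 calls, 5 were kept in all 19 fits that each left out 1 library, namely SLC27A1, CPT1A, SLC25A20, ECHS1 and HADHA, and 11 were lost in 1 or more. Without Hyper replicate 1 there were 1 higher and 7 lower members, and without Hyper replicate 2 there were 1 and 8. Without the libraries labelled RemoLV in the model, 3 members were higher and 12 lower. The shares of all genes called in these refits are not given here. Their counts therefore cannot be set against a change over all genes.

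**Figure D2:**
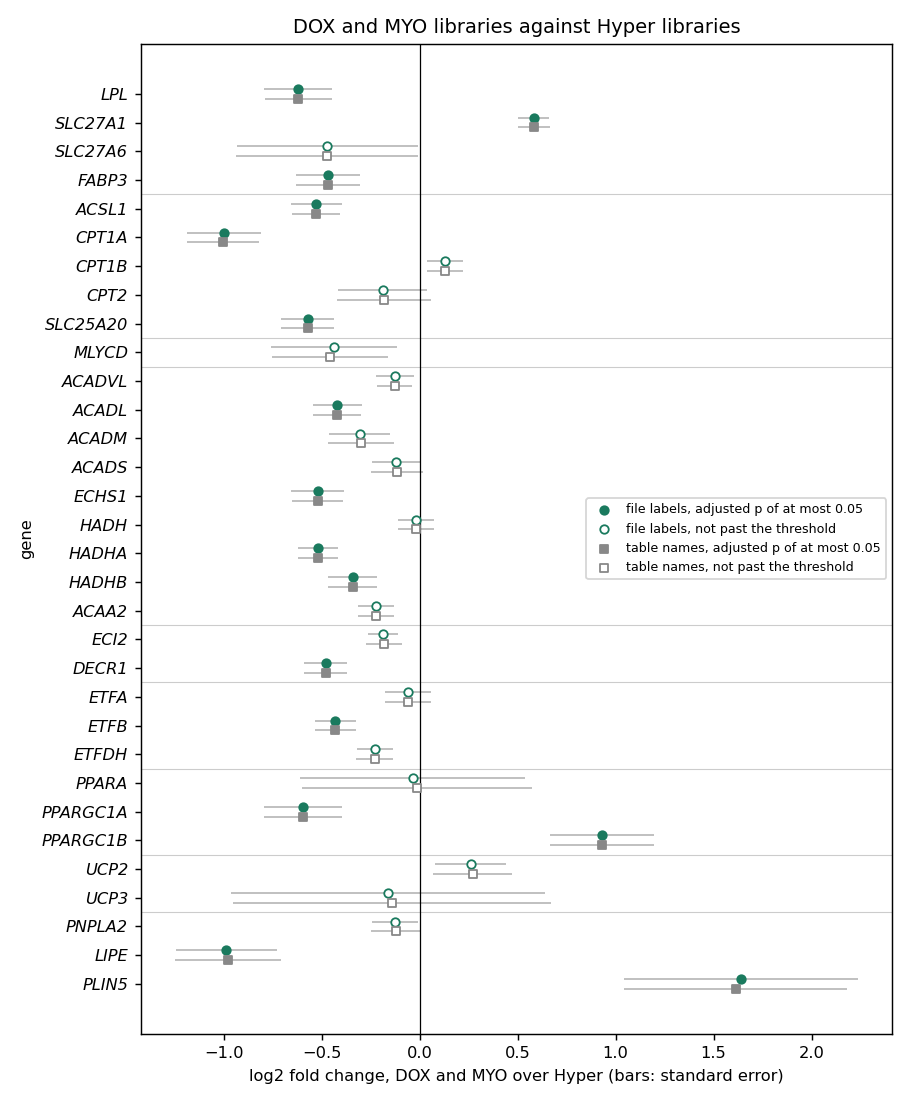
Log2 fold change of DOX and MYO over Hyper for each of the 32 genes, with file labels (circles) and table names (squares). Bars are standard errors and filled symbols have an adjusted p of at most 0.05. CPT1A, which fell by 1.00, and LIPE at -0.99 have the most negative values and PLIN5 at 1.64 the most positive.

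Among the genes of uptake, LPL encodes lipoprotein lipase, which hydrolyses triglyceride at the capillary wall (chr14:4104761-4134964). LPL was at 1733, 1230, 1237, 979 and 1144 CPM in DOX and at 1298, 1219, 1208, 1036 and 1194 CPM in MYO. It was at 459, 533 and 395 CPM in the libraries labelled RemoLV, at 2280, 1435 and 1944 CPM in Hyper and at 3317, 1946 and 3836 CPM in Control. The Control libraries were above all DOX, MYO and RemoLV-labelled libraries and overlapped with Hyper. LPL fell by 1.26 in DOX (SE 0.20, adjusted p = 8.42e-05), by 1.35 in MYO (SE 0.20, adjusted p = 4.63e-05) and by 2.71 in the libraries labelled RemoLV (SE 0.24, adjusted p = 1.41e-07) on the log2 scale. With table names LPL was called higher in DOX (1.49, adjusted p = 3.55e-05) and in MYO (1.33, adjusted p = 0.000106). In Hyper the log2 fold change was -0.69 (SE 0.22) and did not pass (adjusted p = 0.159). Against Hyper, LPL fell by 0.62 in DOX and MYO (SE 0.17, adjusted p = 0.0107), a call that was lost without Hyper replicate 1 (adjusted p = 0.123).

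FABP3 carries fatty acids through the cytosol of cardiomyocytes (chr6:87943003-87950708). FABP3 was at 810, 750, 654, 810 and 819 CPM in DOX and at 802, 775, 897, 796 and 744 CPM in MYO. It was at 310, 368 and 182 CPM in the libraries labelled RemoLV, at 851, 1193 and 1217 CPM in Hyper and at 1251, 802 and 1281 CPM in Control. The libraries labelled RemoLV lay below all others, and those of DOX and MYO overlapped with Control replicate 2. FABP3 fell by 1.96 in the libraries labelled RemoLV (SE 0.22, adjusted p = 1.64e-06), by 0.53 in DOX (SE 0.18, adjusted p = 0.0268) and by 0.47 in MYO (SE 0.18, adjusted p = 0.0476). The DOX call was lost without Control replicate 1, without Control replicate 3 or without DOX replicate 3 (adjusted p up to 0.145), and the MYO call in 13 of 19 fits that each left out 1 library. With table names FABP3 was called higher in DOX (1.42) and in MYO (1.49).

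SLC27A1, fatty acid transport protein 1 of the plasma membrane, went the other way. It was between 141 and 175 CPM in the 10 DOX and MYO libraries and between 97.7 and 119 CPM in the other 9, with no overlap. SLC27A1 rose by 0.71 in DOX (SE 0.087, adjusted p = 8.66e-06), by 0.62 in MYO (SE 0.087, adjusted p = 3.35e-05) and by 0.58 in DOX and MYO over Hyper (SE 0.080, adjusted p = 2.76e-05). With table names it was also higher in DOX (0.62) and in MYO (0.56). The same 10 libraries also stood apart in DDX3Y, in follow-up and in the study they came from, which cannot be told apart from treatment here. SLC27A6 was between 0.597 and 4.87 CPM over all libraries and passed in 0 of the 7 comparisons. Without Control replicate 2 it was called higher in DOX (1.36, adjusted p = 0.0208) and in MYO (1.34, adjusted p = 0.0214), with the opposite sign to the fits with all libraries.

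In activation and the carnitine shuttle, ACSL1 couples long-chain fatty acids to CoA. It fell by 0.52 in DOX (SE 0.15, adjusted p = 0.00846) and by 0.53 in DOX and MYO against Hyper (SE 0.13, adjusted p = 0.00438), and its value in MYO against Control was -0.34 (adjusted p = 0.069). The DOX call was lost without Control replicate 2 (adjusted p = 0.063) and the call against Hyper without Hyper replicate 1 (adjusted p = 0.0544). With table names ACSL1 was at -0.20 in DOX (adjusted p = 0.303).

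CPT1A and CPT1B exchange CoA for carnitine at the outer membrane, the step that malonyl-CoA inhibits. CPT1A (chr2:4250642-4293914) was at 17.4, 17.3, 15.4, 19.9 and 17.7 CPM in DOX and at 26.3, 18.8, 11.9, 16.6 and 17.5 CPM in MYO. It was at 26.9, 48.4 and 62.5 CPM in the libraries labelled RemoLV, at 40.6, 32.7 and 33.9 CPM in Hyper and at 27.2, 28.8 and 24.0 CPM in Control. All 10 DOX and MYO libraries lay below all Hyper libraries, and all Hyper libraries lay above all Control libraries. CPT1A fell by 1.00 in DOX and MYO against Hyper (SE 0.19, adjusted p = 0.000664) and by 0.61 in DOX against Control (SE 0.22, adjusted p = 0.0344). In MYO against Control it was at -0.55 (SE 0.22, adjusted p = 0.0523) and in Hyper against Control at 0.42 (SE 0.25, adjusted p = 0.372). It rose by 0.78 in the libraries labelled RemoLV (SE 0.25, adjusted p = 0.0148), a call lost without RemoLV replicate 3 or without Control replicate 3 (adjusted p up to 0.12). With table names, CPT1A was lower in DOX (-1.25) and in MYO (-1.47), so that its direction in these groups was the same under both namings. The DOX call was lost without any 1 of the 3 Control libraries and without DOX replicate 2 or 3 (adjusted p up to 0.091).

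CPT1B was between 507 and 758 CPM in all 19 libraries. It rose by 0.30 in MYO (SE 0.10, adjusted p = 0.023), a call lost without Control replicate 1 or 3 (adjusted p up to 0.109), and was at 0.22 in DOX (SE 0.10, adjusted p = 0.0869). The log2 ratio of CPT1A to CPT1B per library was -5.27 ± 0.094 in DOX (SD, n = 5), -5.34 ± 0.39 in MYO (SD, n = 5), -3.75 ± 0.46 in the libraries labelled RemoLV, -4.16 ± 0.35 in Hyper and -4.45 ± 0.048 in Control (SD, n = 3 each). Every DOX and MYO library lay below every Control library. The difference from Control was -0.83 in DOX and -0.89 in MYO, each with p = 0.0357 in an exact 2-sided permutation test, the smallest that 5 against 3 allows, and p = 0.0714 after adjustment over 8 ratio tests. It was 0.69 in the libraries labelled RemoLV (exact permutation p = 0.1, the smallest that 3 against 3 allows) and 0.29 in Hyper (exact permutation p = 0.4). With table names the libraries with the mean of -3.75 are Control, so that RemoLV and Hyper then lie below Control, as do DOX and MYO.

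**Figure D3:**
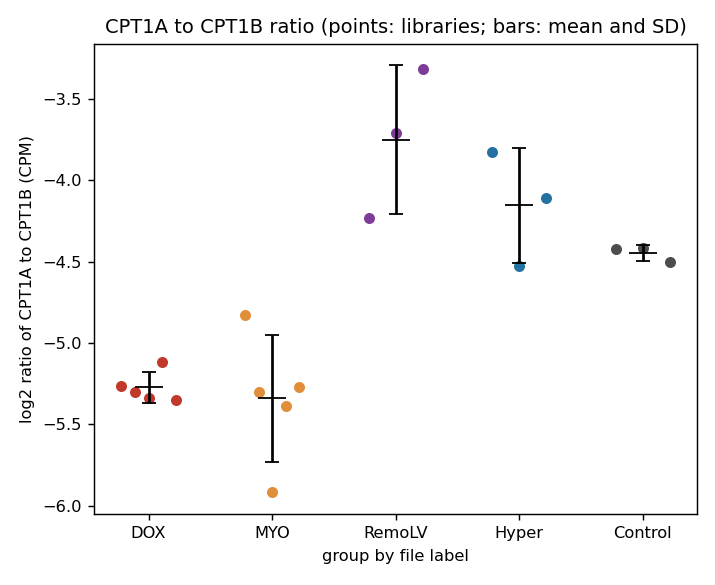
The log2 ratio of CPT1A to CPT1B in each library (points) by file label, with the group mean and SD (bars). The 5 DOX libraries lie close to -5.27, below the 3 Control libraries close to -4.45.

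SLC25A20, the carnitine-acylcarnitine translocase of the inner membrane, was at 69.2, 70.8 and 53.4 CPM in Hyper and between 39.7 and 46.8 CPM in all 10 libraries of DOX and MYO. It fell by 0.57 in DOX and MYO against Hyper (SE 0.14, adjusted p = 0.00376). Against Control, which held 37.5, 72.9 and 44.9 CPM, it was at -0.30 in DOX (adjusted p = 0.135), and under the table names it was called lower in DOX (-0.67, adjusted p = 0.00296) and in MYO (-0.59, adjusted p = 0.0072). CPT2, which rebuilds acyl-CoA inside, passed in 0 of the 7 comparisons. MLYCD, which degrades malonyl-CoA, passed only in RemoLV against Hyper among the 7 (-1.11, SE 0.42, adjusted p = 0.0465), and 13 of 19 fits without 1 library lost that call. Under the table names it was not called there (-0.83, adjusted p = 0.262) but was called higher against Control in MYO (1.05, adjusted p = 0.0323) and in Hyper (1.11, adjusted p = 0.0303).

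**Figure D4:**
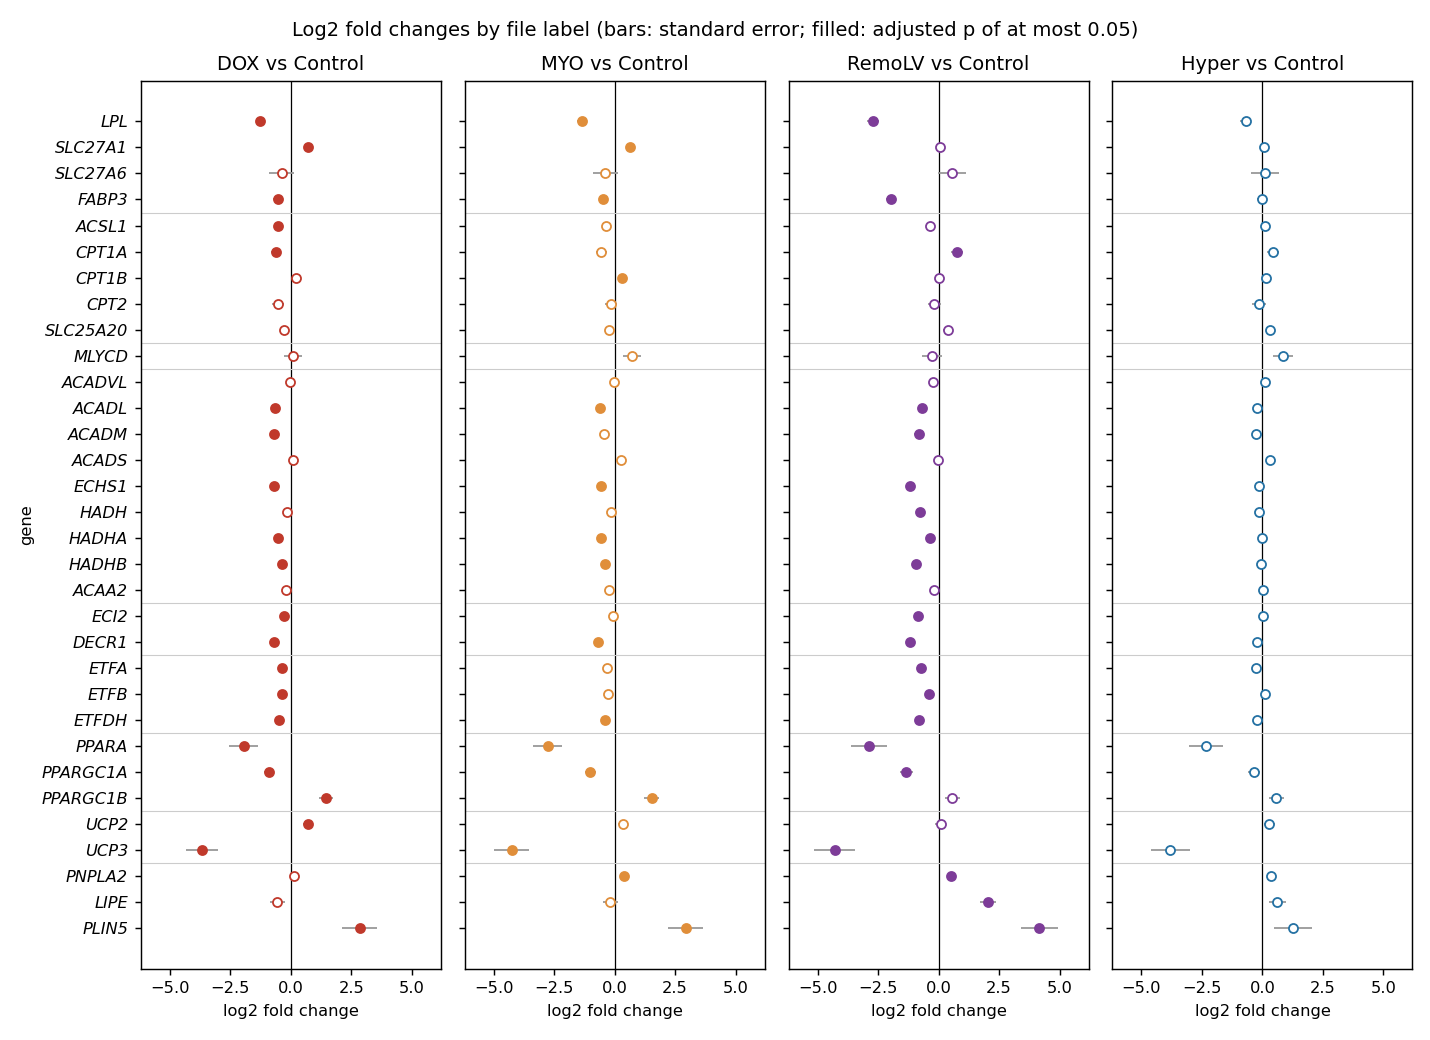
Log2 fold change against Control for the 32 genes in DOX, MYO, the libraries labelled RemoLV and Hyper, with standard errors as bars and filled symbols at an adjusted p of at most 0.05. The 14 matrix enzymes from ACADVL to ETFDH lie mostly left of 0 in the first 3 panels and near 0 in Hyper, and 0 symbols are filled in Hyper.

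The 14 matrix enzymes of the list, those of the beta-oxidation spiral with its auxiliary enzymes and electron carriers, fell in 10 cases in DOX, 6 in MYO and 11 in the libraries labelled RemoLV (21.1%, 21.6% and 23.9% of all genes), and rose in 0 (20.8%, 20.6% and 23.0%). Their medians were -0.38, -0.36 and -0.74, and in Hyper the median was -0.087 with 0 calls (0.0% of all genes). Against Hyper, DOX and MYO were lower in 6 of the 14 and higher in 0 (16.8% and 15.6% of all genes), with a median of -0.27. With table names, 8 of the 14 were higher and 0 lower in DOX (14.9% and 14.5% of all genes), 7 were higher and 0 lower in MYO (14.6% and 14.2%), and 12 were higher and 0 lower in Hyper (18.6% and 17.1%).

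Of the acyl-CoA dehydrogenases, which take the chain through the first oxidation, ACADL for long chains fell by 0.66 in DOX (SE 0.14, adjusted p = 0.00113), by 0.63 in MYO (SE 0.14, adjusted p = 0.00167) and by 0.66 in the libraries labelled RemoLV (SE 0.16, adjusted p = 0.00219). ACADL was between 279 and 377 CPM in DOX, between 293 and 363 CPM in MYO and between 445 and 538 CPM in Control, without overlap. With table names ACADL was at -0.028 in DOX (adjusted p = 0.897) and at 0.072 in MYO (adjusted p = 0.738). ACADM for medium chains fell by 0.69 in DOX (SE 0.17, adjusted p = 0.00421) and by 0.82 in the libraries labelled RemoLV (SE 0.20, adjusted p = 0.00256), and its DOX call was lost without Control replicate 3 (adjusted p = 0.0643). With table names ACADM was at 0.26 in DOX (adjusted p = 0.329). ACADVL for very long chains and ACADS for short chains passed in 0 of the 4 comparisons with Control.

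ECHS1 hydrates short-chain enoyl-CoA. It was at 311, 289, 298, 208 and 308 CPM in DOX, at 271, 276, 360, 304 and 334 CPM in MYO and at 192, 235 and 186 CPM in the libraries labelled RemoLV. Hyper held 426, 402 and 445 CPM and Control 521, 333 and 532 CPM. The Hyper libraries were above all DOX, MYO and RemoLV-labelled libraries. ECHS1 fell by 0.71 in DOX (SE 0.15, adjusted p = 0.00131), by 0.58 in MYO (SE 0.15, adjusted p = 0.00539), by 1.18 in the libraries labelled RemoLV (SE 0.18, adjusted p = 3.64e-05) and by 0.52 in DOX and MYO against Hyper (SE 0.14, adjusted p = 0.00674). With table names ECHS1 was called higher in DOX (0.43, adjusted p = 0.0387) and in MYO (0.63, adjusted p = 0.00438).

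The head-to-head pair HADHA and HADHB carries out the last steps on long chains. HADHA was between 606 and 841 CPM in DOX and MYO and between 943 and 1224 CPM in Hyper and Control, without overlap. HADHA fell by 0.51 in DOX (SE 0.12, adjusted p = 0.00189), by 0.55 in MYO (SE 0.11, adjusted p = 0.00108) and by 0.52 in both together against Hyper (SE 0.10, adjusted p = 0.000848). With table names HADHA was at -0.14 in DOX (adjusted p = 0.376) and at -0.22 in MYO (adjusted p = 0.165), whereas HADHB was called higher in DOX (0.55, adjusted p = 0.00744) and in MYO (0.54, adjusted p = 0.00836). HADHB fell by 0.38 in DOX (SE 0.14, adjusted p = 0.0344) and by 0.40 in MYO (SE 0.14, adjusted p = 0.0263), and both calls were lost in 4 of 19 fits without 1 library. In the libraries labelled RemoLV, HADHB at 786, 755 and 806 CPM lay below all other libraries, while HADHA at 775, 753 and 942 CPM overlapped with DOX and MYO. There HADHB fell by 0.94 (SE 0.16, adjusted p = 0.00012) and HADHA by 0.35 (SE 0.13, adjusted p = 0.0345), and the HADHA call was lost in 4 of the 19 fits (adjusted p up to 0.122). HADH, the short-chain hydroxyacyl-CoA dehydrogenase, fell by 0.77 in the libraries labelled RemoLV (SE 0.11, adjusted p = 3.81e-05) and was at -0.14 in DOX (adjusted p = 0.268), and under the table names it was called higher in DOX (0.61) and in MYO (0.61). ACAA2, the matrix thiolase, passed in 0 of the 7 comparisons.

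The auxiliary enzymes DECR1 and ECI2 handle double bonds of unsaturated chains. DECR1 was between 198 and 265 CPM in DOX and MYO, between 155 and 172 CPM in the libraries labelled RemoLV and between 337 and 410 CPM in Control. DECR1 fell by 0.71 in DOX (SE 0.12, adjusted p = 0.000248), by 0.69 in MYO (SE 0.12, adjusted p = 0.000318), by 1.17 in the libraries labelled RemoLV (SE 0.14, adjusted p = 5.11e-06) and by 0.48 in DOX and MYO against Hyper (SE 0.11, adjusted p = 0.0029). The last call was lost without Hyper replicate 1 (adjusted p = 0.0603). ECI2 fell by 0.83 in the libraries labelled RemoLV (SE 0.097, adjusted p = 2.86e-06) and by 0.28 in DOX (SE 0.085, adjusted p = 0.0138), and was at -0.061 in MYO (adjusted p = 0.593). The DOX call of ECI2 was lost without Control replicate 1 or 3 (adjusted p up to 0.0597). Under the table names DECR1 was called higher in DOX (0.48, adjusted p = 0.00881) and in MYO (0.46, adjusted p = 0.0116), and so was ECI2 (0.62 and 0.71).

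ETFA and ETFB form the electron transfer flavoprotein and ETFDH passes its electrons to ubiquinone. All 3 were called lower in DOX and in the libraries labelled RemoLV, and the DOX call of ETFA was lost in 4 of the 19 fits (adjusted p up to 0.207) and that of ETFB without Control replicate 1 (adjusted p = 0.141). In the libraries labelled RemoLV the ETFB call was lost without Control replicate 1 or RemoLV replicate 3 (adjusted p up to 0.108). ETFDH fell by 0.50 in DOX (SE 0.10, adjusted p = 0.000847), by 0.40 in MYO (SE 0.10, adjusted p = 0.00417) and by 0.80 in the libraries labelled RemoLV (SE 0.12, adjusted p = 2.75e-05). ETFB fell by 0.43 in DOX and MYO against Hyper (SE 0.10, adjusted p = 0.004), while ETFDH at -0.23 (adjusted p = 0.0611) and ETFA at -0.061 (adjusted p = 0.721) did not pass there. Under the table names ETFA and ETFDH were called higher in DOX (0.36 and 0.34) and in MYO (0.38 and 0.36), and ETFB was at 0.047 in DOX (adjusted p = 0.802).

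Markers of cardiomyocytes moved with these enzymes. Of 9 tested markers that atrial and ventricular cardiomyocytes share, 5 were called lower in DOX, 6 in MYO and 7 in the libraries labelled RemoLV (21.1%, 21.6% and 23.9% of all genes), and 1 was called higher in each (20.8%, 20.6% and 23.0%), MYBPC3 in DOX (0.29) and MYO (0.38) and ACTC1 in the libraries labelled RemoLV (2.13). The table names gave 4 markers higher and 2 lower in DOX, 5 and 1 in MYO and 7 and 1 in RemoLV, and against Hyper 0 were higher and 3 lower in DOX and MYO under both namings. Their summed level was 37900 to 51500 CPM in DOX, 41210 to 45960 in MYO, 39690 to 41890 in the libraries labelled RemoLV, 50120 to 56530 in Hyper and 45030 to 59850 in Control, with 0 of the 9 at 0 in any library. The summed level of 9 fibroblast markers was 10770 to 12440 CPM in the libraries labelled RemoLV, 4643 to 7201 in DOX and MYO and 1591 to 3963 in Hyper and Control. This sum is mostly COL1A1, COL1A2 and COL3A1, and the other markers followed it in part. DCN was at 799 to 917 CPM in the libraries labelled RemoLV, at 341 to 546 in DOX and MYO and at 361 to 492 in Control. PDGFRA and FAP also lay above every Control library in the libraries labelled RemoLV (26.6 to 27.8 against 8.43 to 24.8 CPM and 31.6 to 40.5 against 13.7 to 26.6 CPM), and LUM, TCF21 and POSTN ranged from 122 to 144, from 8.56 to 14.4 and from 48.4 to 220 CPM there and from 103 to 131, from 9.74 to 22.6 and from 39.3 to 46.6 CPM in Control. The part of these shifts in the fall of the enzymes was not tested. In bulk tissue, fewer cells of a type and less RNA per cell cannot be told apart.

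Of the regulators, PPARA encodes the nuclear receptor PPAR alpha (chr5:3302755-3321091). PPARA was at 15.9, 8.48, 4.87, 3.36 and 4.62 CPM in DOX and at 2.93, 7.83, 3.74, 4.59 and 1.95 CPM in MYO. It was at 3.87, 4.29 and 3.57 CPM in the libraries labelled RemoLV, at 4.74, 4.22 and 8.31 CPM in Hyper and at 30.9, 4.04 and 51.9 CPM in Control. Control replicates 1 and 3 were above all other libraries, and Control replicate 2 lay among them. PPARA fell by 1.95 in DOX (SE 0.59, adjusted p = 0.0147). It fell by 2.77 in MYO (SE 0.61, adjusted p = 0.00193) and by 2.88 in the libraries labelled RemoLV (SE 0.73, adjusted p = 0.00422), and the value in Hyper was -2.32 (SE 0.71, adjusted p = 0.142). The DOX call was lost without Control replicate 3 (adjusted p = 0.158), and with table names PPARA was at 0.86 in DOX (adjusted p = 0.36) and at 0.22 in MYO (adjusted p = 0.84). Between DOX and MYO together and Hyper the value was -0.037 (SE 0.58, adjusted p = 0.968).

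PPARGC1A and PPARGC1B encode the coactivators PGC-1 alpha and PGC-1 beta and had opposite signs in DOX and MYO by file label, but not with table names. PPARGC1A was at 164, 94.9, 77.6, 64.5 and 119 CPM in DOX, at 114, 93.7, 103, 86.5 and 87.9 CPM in MYO and at 73.5, 69.8 and 88.7 CPM in the libraries labelled RemoLV. It was at 181, 140 and 135 CPM in Hyper and at 215, 147 and 221 CPM in Control. In MYO and in the libraries labelled RemoLV it was below every Control library, and in DOX replicate 1 overlapped. PPARGC1A fell by 0.90 in DOX (SE 0.22, adjusted p = 0.00382), by 1.00 in MYO (SE 0.22, adjusted p = 0.00177), by 1.33 in the libraries labelled RemoLV (SE 0.26, adjusted p = 0.000456) and by 0.60 in DOX and MYO against Hyper (SE 0.20, adjusted p = 0.0278). The last call was lost without Hyper replicate 1 or 2 (adjusted p up to 0.199). With table names PPARGC1A was at 0.41 in DOX (adjusted p = 0.19) and at 0.34 in MYO (adjusted p = 0.286).

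PPARGC1B was between 35.5 and 58.9 CPM in the 10 DOX and MYO libraries. It was at 28.3, 18.5 and 22.0 CPM in the libraries labelled RemoLV, at 15.2, 20.9 and 32.6 CPM in Hyper and at 11.7, 24.3 and 10.1 CPM in Control, so that DOX and MYO lay above all other libraries. PPARGC1B rose by 1.47 in DOX (SE 0.30, adjusted p = 0.000886), by 1.53 in MYO (SE 0.30, adjusted p = 0.000637) and by 0.93 in DOX and MYO over Hyper (SE 0.27, adjusted p = 0.0127). The last call was lost without Hyper replicate 1 or 2 (adjusted p up to 0.105). With table names, PPARGC1B was also higher, by 0.91 in DOX and by 0.95 in MYO.

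**Figure D5:**
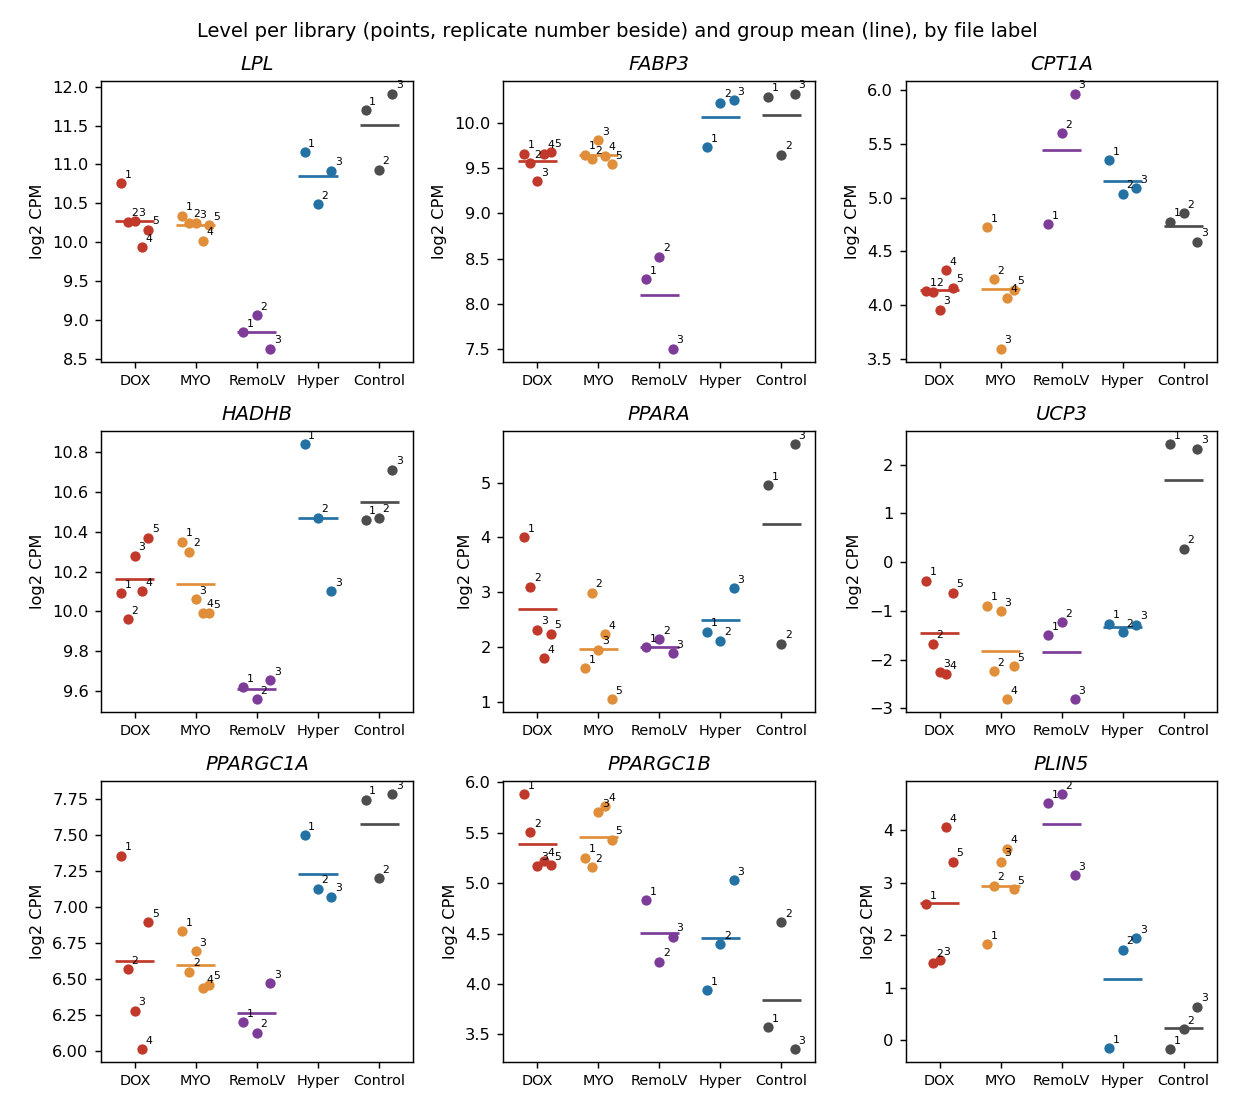
Log2 CPM of 9 genes in every library, with replicate numbers beside the points and group means as lines, by file label. CPM values were offset by a prior count of 2 before the log, which raises values near 0 such as those of UCP3. LPL, FABP3 and HADHB are low in the libraries labelled RemoLV, PPARGC1B is high in DOX and MYO, and Control replicate 2 lies apart from replicates 1 and 3 for PPARA and UCP3.

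The uncoupling proteins UCP2 and UCP3 are inner membrane carriers, and their genes are neighbours on chromosome 9 on the minus strand (UCP2 chr9:8358559-8364552, UCP3 chr9:8378023-8389452). UCP3 was at 5.23, 1.07 and 4.87 CPM in Control (18 to 70 counts). In the other 16 libraries it was at most at 0.624 CPM, with 0 to 10 counts per library, so that Control lay above every other library. The filter asked for 0.688 CPM in 3 libraries, which only the 3 Control libraries reached, so that the direction of UCP3 against Control was set by how it passed and its fold changes are given with no test. They were -3.67 in DOX (SE 0.67), -4.26 in MYO (SE 0.71), -4.30 in the libraries labelled RemoLV (SE 0.85) and -3.80 in Hyper (SE 0.82). UCP2 was between 9.66 and 12.6 CPM in DOX and between 6.14 and 7.36 CPM in Control. UCP2 rose by 0.72 in DOX (SE 0.20, adjusted p = 0.00864) and was at 0.36 in MYO (adjusted p = 0.166). With table names it was at 0.49 in DOX (adjusted p = 0.106). The log2 ratio of UCP2 to UCP3 rests on these counts of UCP3 and was not read as a comparison.

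Of the genes of lipolysis and the lipid droplet, PLIN5 codes for a coat protein of lipid droplets next to mitochondria (chr2:74304613-74314314). PLIN5 was at 5.87, 2.63, 2.73, 16.4 and 10.4 CPM in DOX and at 3.41, 7.55, 10.4, 12.4 and 7.19 CPM in MYO. It was at 22.6, 25.6 and 8.65 CPM in the libraries labelled RemoLV, at 0.756, 3.16 and 3.69 CPM in Hyper and at 0.746, 1.01 and 1.41 CPM in Control. Every DOX, MYO and RemoLV-labelled library was above every Control library, whereas Hyper overlapped with Control, DOX and MYO. PLIN5 rose by 2.84 in DOX (SE 0.71, adjusted p = 0.00464), by 2.94 in MYO (SE 0.72, adjusted p = 0.00365) and by 4.16 in the libraries labelled RemoLV (SE 0.76, adjusted p = 0.000321). The rise of 1.64 in DOX and MYO over Hyper (SE 0.60, adjusted p = 0.0447) was lost in 13 of 19 fits without 1 library. With table names PLIN5 was lower in DOX than in the group then named Control (-1.60, adjusted p = 0.0288) and at -0.99 in MYO (adjusted p = 0.167).

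LIPE encodes hormone-sensitive lipase. LIPE was at 39.3, 64.1 and 45.6 CPM in the libraries labelled RemoLV, above the other 16 libraries, which lay between 5.80 and 24.7 CPM. LIPE rose by 2.04 there against Control (SE 0.34, adjusted p = 0.000123) and fell by 0.99 in DOX and MYO against Hyper (SE 0.26, adjusted p = 0.00741), a call lost without Hyper replicate 2 (adjusted p = 0.0817). Against Control LIPE was at -0.55 in DOX (adjusted p = 0.154) and at -0.18 in MYO (adjusted p = 0.653), and under the table names it was called lower in DOX (-2.35), in MYO (-2.43) and in RemoLV (-2.04). PNPLA2, adipose triglyceride lipase, rose by 0.52 in the libraries labelled RemoLV (SE 0.15, adjusted p = 0.00705) and by 0.38 in MYO (SE 0.13, adjusted p = 0.027), and both calls were lost without Control replicate 3 (adjusted p up to 0.174). With table names PNPLA2 was at -0.17 in MYO (adjusted p = 0.375). Adipocyte markers differed in level. FABP4 was at 63.0 to 182 CPM over all libraries, and PLIN4 was at 68.9 to 83.3 CPM in the libraries labelled RemoLV and at 126 to 182 CPM in Control. ADIPOQ was at 10.9 to 77.5 CPM in the libraries labelled RemoLV, at 0.0705 to 21.9 in Control, at 0.335 to 22.3 in Hyper and at 0.277 to 10.4 in DOX and MYO. Of 6 adipocyte markers, 2 were called higher and 1 lower in the libraries labelled RemoLV (23.0% and 23.9% of all genes), the reverse with table names, and their summed level, mostly FABP4 and PLIN4, was 226 to 344 CPM there and 270.5 to 322 CPM in Control. CIDEC at 1.83 to 2.48 CPM and THRSP at 1.60 to 5.21 CPM in the libraries labelled RemoLV were above every Control library, which held 0.141 to 1.60 and 0.0705 to 0.653 CPM. PLIN1, another defining marker, was at 0 in 2 of the 3 Hyper libraries, at 1.96 to 10.4 CPM in the libraries labelled RemoLV and at 0.0705 to 3.44 CPM in Control. The part of adipocytes in the values of LIPE was not tested.

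DOX and MYO, the free and the liposomal form of the same drug, were compared directly at the same dose and time. By edgeR, 0 of the 32 members were called in either direction (0.0% of all genes), and DESeq2 also called 0. At an unadjusted p of at most 0.05, 1 member was above (UCP2) and 2 were below (ECI2 and PNPLA2) in DOX. Of all 13552 genes, 521 were above and 420 below at that threshold. The median difference of the members was -0.058. PNPLA2 was between 88.0 and 97.0 CPM in DOX and between 101 and 117 CPM in MYO, without overlap, with a log2 fold change of -0.26 (SE 0.11, adjusted p = 0.71). The log2 fold change of DOX over MYO was 0.086 (-0.25 to 0.43) for LPL, -0.055 (-0.44 to 0.33) for CPT1A, -0.061 (-0.53 to 0.41) for PPARGC1B and -0.10 (-1.07 to 0.88) for PLIN5, with 95% normal intervals from the standard errors. The intervals, not adjusted for the number of genes, left out 0 for ECI2 (-0.36 to -0.073), PNPLA2 (-0.48 to -0.042) and UCP2 (0.031 to 0.71). With table names 0 members were called (0.0% and 0.0148% of all genes higher and lower).

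The libraries labelled RemoLV against Hyper gave 2 higher and 17 lower members (16.9% and 18.5% of all genes), with a median of -0.44. LIPE (1.41) and PLIN5 (2.91) were the 2 that rose. LPL fell by 2.03 (SE 0.23, adjusted p = 2.95e-06) and FABP3 by 1.92 (SE 0.22, adjusted p = 2.37e-06), and among the matrix enzymes 12 of 14 fell. Of the 19 calls, 12 were kept in all fits that each left out 1 library, and without RemoLV replicate 1 the lower members went from 17 to 11. The share of all genes called in that fit is not given here. The calls of ACSL1, MLYCD, ACADVL, ACADL, ACADM, HADHA and ETFA were lost in 1 or more fits, that of HADHA in 13 of 19 (adjusted p up to 0.242). With table names, 0 members were called in this comparison by edgeR (0.0% of all genes). At an unadjusted p of at most 0.05 there were 3 above and 2 below, against 1298 and 1146 of all 13552 genes. UCP3 was 1 of those 3, and it passed the filter only through the libraries that the table names call RemoLV.

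Other genes of the pathway were counted from lists, to be read against the shares of all genes called, which were 20.8% higher and 21.1% lower in DOX, 20.6% and 21.6% in MYO, 23.0% and 23.9% in the libraries labelled RemoLV and 15.6% and 16.8% in DOX and MYO against Hyper. Of 19 other genes of mitochondrial acyl-CoA breakdown, 10 fell in DOX, 10 in MYO and 13 in the libraries labelled RemoLV, with 0 called higher, and HIBCH, a hydrolase of valine breakdown, fell by 0.81 in DOX (SE 0.12, adjusted p = 7.58e-05). ACOT9, an acyl-CoA thioesterase, fell by 0.94 in the libraries labelled RemoLV. Of 18 genes of the tricarboxylic acid cycle, which takes up the acetyl-CoA, 9 fell in DOX, 9 in MYO, 17 in the libraries labelled RemoLV and 7 in DOX and MYO against Hyper, with 0 called higher. DLD fell by 0.66 in DOX and IDH3B by 0.82 in the libraries labelled RemoLV. Of 16 genes of peroxisomal oxidation, 3 rose and 3 fell in DOX, 3 rose and 5 fell in MYO, and 4 rose and 3 fell in the libraries labelled RemoLV. ACOX3, a peroxisomal oxidase, rose by 0.58 in DOX. With table names (14.9% and 14.5% of all genes higher and lower in DOX, 14.6% and 14.2% in MYO) these directions turned for the first 2 lists. The acyl-CoA list then had 4 higher and 1 lower in DOX and 7 and 1 in MYO, and the tricarboxylic acid cycle 12 and 0 in DOX and 11 and 0 in MYO, while the peroxisomal list had 1 and 2 in DOX and 1 and 1 in MYO. In RemoLV against Control table names exchange the groups, so that the 13 and 17 that fell are called higher. DOX and MYO against Hyper had 1 higher and 7 lower of the acyl-CoA list and 2 and 2 of the peroxisomal list.

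Among 17 other genes of uptake and activation, 1 rose and 5 fell in DOX (20.8% and 21.1% of all genes), 2 rose and 6 fell in MYO (20.6% and 21.6%), and 5 rose and 5 fell in the libraries labelled RemoLV (23.0% and 23.9%). ACSL4 fell by 0.74 in DOX and ACSL6 rose by 6.63 in the libraries labelled RemoLV (SE 0.76, adjusted p = 2.84e-06). Of 4 genes of carnitine supply, 0 were called in DOX or MYO, and in the libraries labelled RemoLV 1 rose and 1 fell, CROT by 0.55. BDH1, a dehydrogenase of ketone body metabolism, fell by 3.19 in the libraries labelled RemoLV (SE 0.19, adjusted p = 2.34e-09).

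Of 19 nuclear receptors and coregulators, 4 rose and 7 fell in DOX (20.8% and 21.1% of all genes), 5 rose and 8 fell in MYO (20.6% and 21.6%), and 3 rose and 11 fell in the libraries labelled RemoLV (23.0% and 23.9%). The same shares hold for the lists that follow. The coregulator MED1 fell by 0.60 in DOX and the estrogen-related receptor ESRRG by 1.78 in the libraries labelled RemoLV. Of 9 AMPK genes with ACACA, 2 rose and 4 fell in DOX and in MYO, and 2 rose and 3 fell in the libraries labelled RemoLV, with PRKAA2 at -0.68 in DOX and PRKAG2 at -1.86 in the libraries labelled RemoLV. Of 11 tested genes of triglyceride storage, 3 rose and 3 fell in DOX, 4 rose and 4 fell in MYO, and 2 rose and 2 fell in the libraries labelled RemoLV, where PLIN3 fell by 1.16. In Hyper, 0 genes of these lists were called by edgeR. With table names the counts higher and lower in DOX were 6 and 7 for uptake and activation, 7 and 2 for the nuclear receptors, 0 and 1 for AMPK and 1 and 3 for storage (14.9% and 14.5% of all genes), and in MYO 3 and 8, 7 and 2, 2 and 2, and 2 and 1 (14.6% and 14.2%). In DOX and MYO against Hyper they were 1 and 3, 2 and 5, 1 and 4, and 3 and 2 (15.6% and 16.8%).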

How the data were processed

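Poly(A) RNA labelled as left ventricular, from 19 pigs, was sequenced as strand-specific read pairs. The authors aligned the pairs to Sscrofa11.1 with STAR, counted them per Ensembl gene with HTSeq 0.11.1 (reverse strand) and deposited raw counts. Their deposited table holds log2 scaled expression, used here for gene symbols and for matching sample names, and the authors' own fold changes and adjusted p-values, which were not used. In R 4.3.3, counts were scaled by TMM, filtered by filterByExpr and tested in edgeR 4.0.16 with robust quasi-likelihood fits of 1 model of the 5 groups and Benjamini-Hochberg adjustment over 13552 genes. Standard errors came from the fold change and its F statistic. CPM used TMM-scaled library sizes, and log2 CPM a prior count of 2. Levels per kb used RefSeq exons of the same build. DESeq2 1.42.0, other scaling and filters, a replicate block, table names and leaving out libraries were the alternatives. The procedure was tested on simulated data.

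Members and lists were chosen with earlier results of these data known. All 35 members are named, and from each other list the gene with the lowest adjusted p in DOX and in RemoLV against Control, by file label, except for some items that are not reported here. No 2 libraries agreed within sampling noise (lowest mean chi-square per gene 12.0). Depth was 9527710 to 20370209 counts. Conditions that go with study or wall region cannot be separated, and replicates are separate pigs.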

Additional observations from a re-analysis of the deposited data

Results flagged for a closer look

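In 64 groups of 5 libraries (32 genes in DOX and in MYO), the gap of the highest or lowest library to its nearest neighbour was set against the whole range of the group, with a critical ratio of 0.71. It was exceeded in 3 groups, where about 1 in 20 or 3.2 would be passed by chance. SLC27A6 was at 2.33 CPM in MYO replicate 3, the highest of its group (ratio 0.828). SLC25A20 was at 39.7 CPM in MYO replicate 4, the lowest of its group (ratio 0.735). ECHS1 was at 208 CPM in DOX replicate 4, the lowest of its group (ratio 0.824).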

How the results depend on the processing

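Member counts called higher and lower with table names were 12 and 4 in DOX, 13 and 3 in MYO, 16 and 4 in RemoLV, 17 and 2 in Hyper and 0 and 0 in RemoLV against Hyper, with medians of 0.27, 0.26, 0.35, 0.44 and -0.0097. In DOX against Control, 17 of the 32 members changed sign with table names, and the 16 called under 1 or both namings became, as log2 fold changes, LPL 1.49, FABP3 1.42, ACADVL 0.28, ACADM 0.26, ECHS1 0.43, HADH 0.61, HADHB 0.55, ECI2 0.62, DECR1 0.48, ETFA 0.36, ETFB 0.046, ETFDH 0.34, PPARA 0.86, PPARGC1A 0.41, UCP3 0.54 and PLIN5 -1.60. In MYO against Control, 19 of the 32 members changed sign with table names, and the 15 called under 1 or both namings became LPL 1.33, FABP3 1.49, ACADL 0.072, ECHS1 0.63, HADH 0.61, HADHB 0.54, ECI2 0.71, DECR1 0.46, ETFA 0.38, ETFDH 0.36, PPARA 0.22, PPARGC1A 0.34, UCP3 0.17, PNPLA2 -0.17 and PLIN5 -0.99. In RemoLV against Control, which the table names exchange, 32 of the 32 members changed sign with table names, and the 20 called under 1 or both namings became LPL 2.71, FABP3 1.96, CPT1A -0.78, ACADL 0.66, ACADM 0.82, ECHS1 1.18, HADH 0.77, HADHA 0.35, HADHB 0.94, ECI2 0.83, DECR1 1.17, ETFA 0.71, ETFB 0.41, ETFDH 0.80, PPARA 2.88, PPARGC1A 1.33, UCP3 4.30, PNPLA2 -0.52, LIPE -2.04 and PLIN5 -4.16. In Hyper against Control, 22 of the 32 members changed sign with table names, and the 14 called under 1 or both namings became LPL 2.03, FABP3 1.92, ACADL 0.44, ACADM 0.56, ECHS1 1.05, HADH 0.63, HADHA 0.34, HADHB 0.89, DECR1 0.95, ETFA 0.43, ETFDH 0.58, PPARGC1A 0.97, LIPE -1.41 and PLIN5 -2.91. In RemoLV against Hyper, 22 of the 32 members changed sign with table names, and the 14 called under 1 or both namings became LPL 0.69, FABP3 0.032, ACADL 0.22, ACADM 0.25, ECHS1 0.12, HADH 0.14, HADHA 0.0091, HADHB 0.050, DECR1 0.22, ETFA 0.28, ETFDH 0.22, PPARGC1A 0.36, LIPE -0.62 and PLIN5 -1.25. SLC27A6 changed sign without Control replicate 2, to 1.36 in DOX (adjusted p = 0.0208) and 1.34 in MYO (adjusted p = 0.0214), and its lowest values without 1 library were -0.80 and -0.81. The replicate block gave 11 lower members in DOX, and DESeq2 gave 17 lower in MYO and 1 lower in Hyper. For the block, DESeq2 and the fits without 1 library, the shares of all genes called are not given here. The replicate numbers did not pair the libraries (32 same-numbered pairs, correlations of deviations from -0.25 to 0.24, median 0.0069, 4 over 0.1), and with the block RemoLV against Hyper gave 12 lower, DOX and MYO against Hyper 2 higher and 10 lower, and MYO 9 lower. Leaving out 1 library at a time gave 4 to 5 higher and 10 to 17 lower members in DOX against Control, with medians from -0.43 to -0.38. In MYO against Control the ranges were 3 to 8, 9 to 15 and -0.39 to -0.26. In RemoLV against Control the ranges were 2 to 7, 14 to 16 and -0.44 to -0.33. In Hyper against Control the ranges were 0 to 5, 0 to 3 and -0.013 to 0.064. In DOX against MYO the ranges were 0 to 0, 0 to 0 and -0.083 to -0.023. In RemoLV against Hyper the ranges were 2 to 3, 11 to 17 and -0.44 to -0.38. In DOX and MYO against Hyper the ranges were 1 to 3, 7 to 14 and -0.37 to -0.21. The log2 ratio of CPT1A to CPT1B against Control ranged from -0.86 to -0.81 in DOX, from -1.02 to -0.75 in MYO, from 0.48 to 0.93 in RemoLV, from 0.13 to 0.48 in Hyper. The log2 ratio of UCP2 to UCP3 against Control, set by the low counts of UCP3 outside Control, ranged from 3.44 to 4.61 in DOX, from 3.41 to 4.59 in MYO, from 3.07 to 4.40 in RemoLV, from 2.84 to 4.02 in Hyper. The ratio of MLYCD to ACACB was not run, since ACACB was not found by symbol. UCP3 rests on 0 to 10 counts per library outside Control. The causes of these shifts were not tested.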
